A study of Rattus norvegicus with 10 samples.

Results

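Tdo2, Kmo, Kynu, Haao, Hpd, Hgd, Fah and Aass encode liver enzymes that break down tryptophan, tyrosine and lysine. They were chosen by name, for their place in these pathways, and are 8 of the 14217 genes that a single symbol of the array annotation identifies. Each was represented by 1 probe set, a group of short array oligonucleotides whose joint brightness is read as the signal of a gene. All 8 probe sets passed the filter on dim signals and were tested. Aass was lower on all 8 arrays of the high-fat diets than on both chow arrays, 1.66-fold on average, but 0 of the 8 genes passed the test after adjustment for all probe sets in any of 9 comparisons.

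The livers came from male Wistar rats, an outbred laboratory strain, and 10 arrays covered 5 diets with 2 arrays each. One group had eaten chow, for which no fat content is given, and 4 groups had taken 42% of their energy as fat, from lard, coconut fat, olive oil or fish oil, over 12 weeks. The series text calls the fish oil cod liver oil. All rats, those on chow included, were killed with CO2 after a night without food, so the measurements describe the fasted liver, and the piece taken was clamp frozen. Each array is labelled as a liver sample of a rat, the labels do not say whether RNA was pooled, and p-values therefore measure the spread between these samples.

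Tryptophan is opened by tryptophan 2,3-dioxygenase (Tdo2), and the kynurenine formed passes through Kmo, Kynu and Haao toward quinolinate, from which the liver can make NAD. Tyrosine loses its amino group to Tat and is then taken apart by Hpd, Hgd, Gstz1 and Fah to fumarate and acetoacetate. Lysine enters the saccharopine pathway in mitochondria through Aass and ends, like tryptophan that is fully oxidised, as acetyl-CoA. In the liver these routes dispose of amino acids that are not used for protein, and several of their enzymes are known to respond to glucocorticoids, to fasting and to the protein supply.

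The promoters of Aass and Hpd are printed because these 2 genes had the smallest F-test p for a difference between diets. Each sequence is the RefSeq promoter on build GRCr8, from 250 bases before to 50 bases after the gene's start, 5′ to 3′ on the gene's own strand. Capitals mark matches on either strand to any of 5 short motifs: CCAAT (the CCAAT box), TATAAA (the TATA box), AGGTCA (a nuclear receptor half-site), AGAACA (a glucocorticoid receptor half-site) and CACGTG (the E-box).
Aass, chr4:52628762-52629061, minus strand: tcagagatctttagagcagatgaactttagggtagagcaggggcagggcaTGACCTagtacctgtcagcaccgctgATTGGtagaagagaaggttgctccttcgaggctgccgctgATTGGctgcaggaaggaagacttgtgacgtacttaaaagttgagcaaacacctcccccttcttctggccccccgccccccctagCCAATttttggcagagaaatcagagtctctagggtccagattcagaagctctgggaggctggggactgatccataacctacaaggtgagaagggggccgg
Hpd, chr12:39041996-39042295, plus strand: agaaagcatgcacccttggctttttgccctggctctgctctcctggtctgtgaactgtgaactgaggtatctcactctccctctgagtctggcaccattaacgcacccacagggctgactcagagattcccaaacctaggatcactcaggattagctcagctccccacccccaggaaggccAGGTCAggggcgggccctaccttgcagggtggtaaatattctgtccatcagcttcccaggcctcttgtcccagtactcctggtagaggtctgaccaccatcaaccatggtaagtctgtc
The Aass window held 3 matches to CCAAT, of which ATTGG is the reverse complement, and 1 match to AGGTCA, read as TGACCT. Of 33469 promoters of the same length, 37.5% held a CCAAT and 3.02% held at least 3. The Hpd window held 1 AGGTCA, which was found in 16.2% of the promoters. Among the 8 genes, 5 windows had a CCAAT, 4 had an AGGTCA, 1 (Tdo2) had a TATAAA and 1 (Haao) had an AGAACA, against 14.2% and 20.7% of all promoters for the last 2 motifs. CACGTG was present in 0 of the 8 windows and in 6.42% of all. These matches are descriptions of the letters, and no binding was measured.

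Signals are MAS5 values on a linear scale, in which the mean of each array after trimming 2% at each end is close to 100. Median signals of the arrays were 28.7 to 31.9, except for the second lard array at 36.8, whose mean correlation with arrays of other diets was also the lowest (0.927, against 0.930 to 0.942 for the others). The ratios of 3′ to 5′ control probe sets, a sign of RNA integrity, were 0.959 to 1.19 for GAPDH and 2.10 to 2.75 for actin. The summed signal of 8 hepatocyte markers was 63447 to 65901 on the chow arrays and 63561 to 75491 on the high-fat arrays, and 0 of them lay at or below the background bound of 12.8, set by the brightest of the bacterial trp controls. Levels of different genes cannot be compared on this scale, because each probe set has its own brightness. The probe sets of Aass and Hgd are annotated through an expressed sequence tag, which ties them to the gene less directly than a full transcript.

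Among the 8 genes, Aass of lysine breakdown was the 1 whose chow and high-fat arrays did not overlap. Aass (probe set 1377375_at) encodes the bifunctional enzyme that joins lysine to 2-oxoglutarate and splits the resulting saccharopine, and its loss causes hyperlysinaemia in humans. Its signal was 3361 and 3356 with chow, 2159.8 and 2078 with lard, 2034 and 2171 with olive oil, 1884 and 1984 with coconut fat, and 1679 and 2275 with fish oil. The highest of the 8 high-fat arrays, 2275, lay well under the lower chow array, 3356, a gap wider than the spread within any diet. The diet means ran from 3359 ± 3.46 (SD, n = 2) with chow to 1934 ± 70.7 with coconut fat. Neighbouring high-fat diets in this order differed by less than the spread of their arrays: fish oil stood at 1977 ± 422, olive oil at 2102 ± 97.2 and lard at 2119 ± 57.8.

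Relative to chow, the 4 high-fat diets averaged a log2 fold change of -0.73 for Aass (SE 0.12, 95% interval -0.99 to -0.47, 1.66-fold lower). The limma p was 6.8e-05 before adjustment, rank 19 of 18625 probe sets, and the Benjamini-Hochberg adjusted p was 0.0666, which misses the threshold of 0.05. Without the second fish oil array, where Aass is highest among the high-fat arrays, the log2 fold change was -0.78. Over all 19 other settings it lay between -0.78 and -0.67. Without the intensity trend the limma adjusted p was 0.506. Of all probe sets, 0.0376% passed the adjusted threshold in this comparison and 6.66% had an unadjusted p under 0.05. All 8 high-fat arrays lay below both chow arrays for 2.51% of all probe sets and for 1 of the 8 genes, Aass.

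Each diet alone gave Aass a similar fold change, and these comparisons share the same 2 chow arrays. The log2 fold change was -0.66 with lard, -0.68 with olive oil, -0.80 with coconut fat and -0.78 with fish oil, each with an SE of 0.15. The limma adjusted p values were 0.381, 0.202, 0.314 and 0.0874 in that order. For fish oil the value rests on arrays that stand apart, being -0.56 when the first was left out and -0.999 when the second was. Fish oil differed from the other 3 fats by -0.07 (SE 0.12, 95% interval -0.34 to 0.20), coconut fat from lard and olive oil by -0.13 (95% interval -0.41 to 0.16) and olive oil from lard by -0.01 (95% interval -0.34 to 0.32). These intervals include differences in either direction between the fats.

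In whole liver, fewer cells of a type and less RNA per cell cannot be told apart. Of 10 periportal markers, 9 had log2 fold changes below 0 for the high-fat average against chow (median -0.24), as had 50.3% of all probe sets tested. Their summed signal was 36077 to 36832 on the chow arrays and 26932 to 34183 on the high-fat arrays, with 0 of 10 at background on all arrays. Of the 10, Sds passed the limma test as lower, and at an unadjusted p under 0.05 4 were lower and 1 higher. Of all probe sets, 0.0376% passed and 6.66% had an unadjusted p under 0.05. All 9 Kupffer cell and macrophage markers tested (median -0.08) and all 3 cholangiocyte markers tested (median -0.44) were also below 0, with 0 passing in limma and 2 and 0 at an unadjusted p under 0.05. The part of these markers in the Aass result was not tested.

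Of the enzymes after Aass, 4 lay nearer to chow on average and the last, Acat1, lay above it. For the high-fat average against chow, Aldh7a1, which oxidises the semialdehyde that Aass releases, had a log2 fold change of -0.19 (95% interval -0.42 to 0.03). Aadat, a 2-aminoadipate transaminase, was at -0.12, Dhtkd1, a subunit of the 2-oxoadipate dehydrogenase, at 0.01, and Gcdh, glutaryl-CoA dehydrogenase, at 0.15. The limma adjusted p of these 4 genes was between 0.809 and 0.993. Between the fats, Gcdh passed as higher on fish oil relative to the other 3 fats on 1 of its 3 probe sets (log2 fold change 0.70, limma adjusted p = 0.0367), while the brightest (0.47, adjusted p = 0.136) and the remaining one (0.54, adjusted p = 0.156) did not pass. That call held in 10 of 19 other settings, and was lost without any 1 array of lard, coconut fat or fish oil. Against chow, fish oil gave the brightest Gcdh probe set 0.50 (limma adjusted p = 0.355). Acat1, the mitochondrial thiolase that acts on acetoacetyl-CoA, had log2 fold changes against chow of 0.54 for the high-fat average (limma adjusted p = 0.327) and 1.02 for fish oil (adjusted p = 0.0506), where its dimmer probe set had 1.17 (adjusted p = 0.248). In fish oil relative to the other 3 fats Acat1 had 0.65 (limma adjusted p = 0.0831), and Crym, a ketimine reductase on the pipecolate route, had 0.60 (adjusted p = 0.296). Against chow Crym had 0.34 with fish oil, 0.41 with coconut fat, -0.52 with lard and -0.67 with olive oil, and none of these passed. Of 14 genes of the lysine list tested by their brightest probe set, 0 passed in limma against chow for the high-fat average, with 2 at an unadjusted p under 0.05, 1 higher and 1 lower. Their median log2 fold change was -0.01, beside -0.00 over all probe sets tested, of which 6.66% had an unadjusted p under 0.05.

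**Figure D1:**
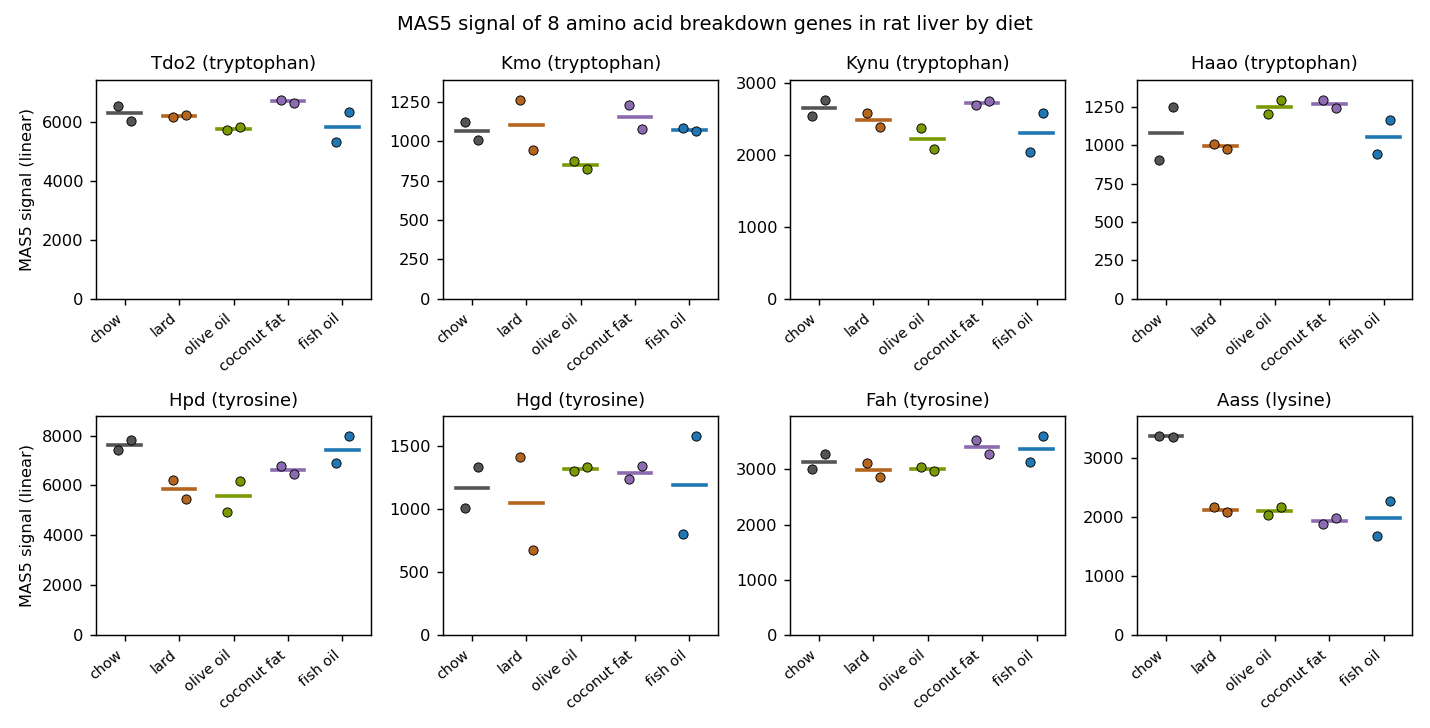
MAS5 signal (linear vertical axis from 0, a separate scale for each gene) of the 8 genes in rat liver by diet; points are single arrays and bars the mean of 2 arrays. The chow arrays of Aass (3361 and 3356) stand above all 8 high-fat arrays (1679 to 2275), whereas chow and high-fat arrays overlap for the other 7 genes.

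In tyrosine breakdown, Hpd was the member with the clearest spread between diets. Hpd (probe set 1368188_at) encodes 4-hydroxyphenylpyruvate dioxygenase, the enzyme blocked by the drug nitisinone. Its signal was 7425 and 7829.7 with chow, 6217 and 5459 with lard, 4942 and 6186 with olive oil, 6771 and 6476 with coconut fat, and 6905 and 7969 with fish oil. The 6 arrays of lard, olive oil and coconut fat all lay below both chow arrays, while the fish oil arrays lay on either side of the lower chow array. How many of all probe sets separate these 6 arrays from chow was not counted. The diet means ran in the order chow (7627.5 ± 286), fish oil (7437 ± 752), coconut fat (6624 ± 209), lard (5838 ± 536) and olive oil (5564 ± 879), and the neighbours chow and fish oil, and lard and olive oil, differed by less than the larger SD of each pair.

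Against chow, Hpd had a log2 fold change of -0.46 with olive oil (SE 0.14, 95% interval -0.78 to -0.15, limma adjusted p = 0.396) and -0.39 with lard (95% interval -0.70 to -0.07, adjusted p = 0.549). The values with coconut fat and fish oil were -0.20 and -0.04. For the high-fat average it was -0.27 (1.21-fold lower, unadjusted p = 0.0341, limma adjusted p = 0.686). Leaving out the first olive oil array changed the olive oil value to -0.30, and leaving out the second changed it to -0.63. None of these comparisons of Hpd passed after adjustment.

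Between the fats, both fish oil arrays of Hpd lay above all 6 arrays of the other high-fat diets, which 5.96% of all probe sets did. The log2 fold change of fish oil over the other 3 fats was 0.31 (SE 0.12, 95% interval 0.05 to 0.57, 1.24-fold higher, unadjusted p = 0.0219, limma adjusted p = 0.317). In this comparison 0.424% of all probe sets passed the adjusted threshold and 11.8% had an unadjusted p under 0.05, and 0 and 1 of the 8 genes did. Of 9 pericentral hepatocyte markers tested, 6 had log2 fold changes above 0 here, as had 47.4% of all probe sets tested. The summed signal of the list was 22060 to 23806 on the fish oil arrays and 12285 to 19371 on the other high-fat arrays. Cyp2e1 made up much of that sum, with 8828 and 9109 on the fish oil arrays and 3830 to 7120 on the others. Of 9 Kupffer cell and macrophage markers, 8 were below 0, as were 52.6% of all probe sets tested. The sums of these markers were 2681 to 2920 on the fish oil arrays and 3096 to 4143 on the other high-fat arrays. In either list 0 markers passed the limma test and 3 had an unadjusted p under 0.05. All 4 lymphocyte and all 2 red blood cell markers tested were below 0, and all 3 cholangiocyte markers above. Of these, 1, 2 and 0 had a limma unadjusted p under 0.05. The part of all these markers in the Hpd result was not tested.

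Hgd (probe set 1398514_at) encodes homogentisate 1,2-dioxygenase, whose loss causes alkaptonuria in humans. Its signal was 1006 and 1331 with chow, 1415 and 679 with lard, 1299 and 1332 with olive oil, 1243 and 1339 with coconut fat, and 806 and 1579 with fish oil. The lowest and the highest array differed 2.33-fold, and the pairs of lard and fish oil each spanned most of that range. The residual SD of Hgd was 0.34 on the log2 scale, against 0.12 to 0.17 for the other 7 genes. Its 95% intervals against chow ran from 0.505-fold to 1.91-fold over the 4 diets, and the interval of each diet included differences in either direction.

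Fah (probe set 1368092_at) encodes fumarylacetoacetate hydrolase, the last enzyme of the pathway, whose loss causes hereditary tyrosinaemia type I in humans. Its signal was 3004 and 3272 with chow, 3117 and 2864 with lard, 3043 and 2970.1 with olive oil, 3520.3 and 3269 with coconut fat, and 3137 and 3596 with fish oil. These values spanned 1.26-fold, the smallest range of the 8 genes, and every high-fat pair overlapped the chow pair. The log2 fold changes of Fah against chow were -0.07 with lard, -0.06 with olive oil, 0.11 with coconut fat and 0.10 with fish oil (limma adjusted p of at least 0.933).

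Of the neighbours in this pathway, Got1 passed the test. Got1 is cytosolic aspartate aminotransferase, which also accepts aromatic amino acids, and its signal was 1429 and 1288 with chow and between 350.0 and 572.5 on the 8 high-fat arrays (median 482.5). It fell 2.93-fold with the high-fat average against chow (log2 fold change -1.55, SE 0.18, limma adjusted p = 0.0192). The call was lost without the intensity trend (adjusted p = 0.213) and without the second lard array or either chow array, with log2 fold changes of -1.64 to -1.46 throughout. Tat, tyrosine aminotransferase, had signals of 2598 and 2613 with chow and 1557 to 2408 with the high-fat diets (log2 fold change -0.45, limma adjusted p = 0.461). Gstz1, maleylacetoacetate isomerase, was at 0.05 (95% interval -0.21 to 0.30). Of 7 genes of the phenylalanine and tyrosine list tested, 1 passed as lower and 0 as higher (median log2 fold change -0.19). For the high-fat average, 0.0376% of all probe sets passed.

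**Figure D2:**
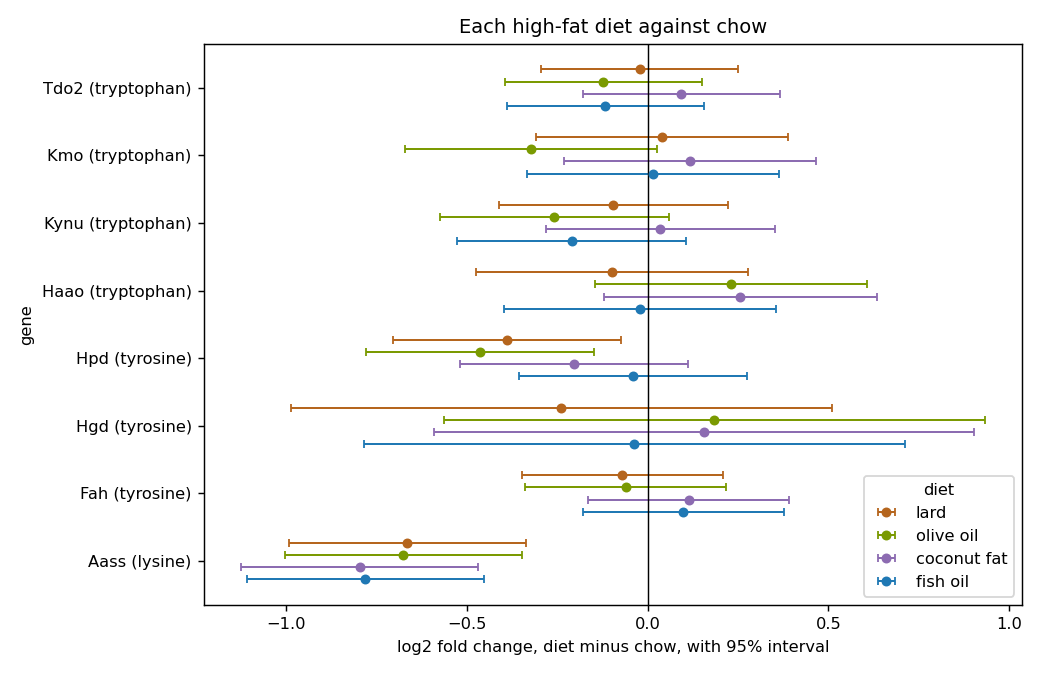
Log2 fold change (horizontal axis) of each of the 8 genes (rows) with lard, olive oil, coconut fat and fish oil against chow; points are limma estimates from 2 arrays a diet and bars 95% intervals. The intervals of Aass lie below 0 with all 4 diets (-0.66 to -0.80), those of Hpd with lard and olive oil, and the others include 0; none of the plotted values passed after adjustment.

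In tryptophan breakdown, 0 of the 4 genes had an unadjusted p under 0.05 in any comparison of 1 diet with chow by limma. Tdo2 (probe set 1368720_at) catalyses the first and rate-limiting step of the pathway in liver. Its signal was 6558 and 6060.4 with chow, 6177 and 6240.5 with lard, 5731 and 5847 with olive oil, 6777 and 6667 with coconut fat, and 5326 and 6347 with fish oil. The coconut fat arrays were the highest and the 10 arrays spanned 1.27-fold. The log2 fold changes against chow lay between -0.12 with olive oil and 0.09 with coconut fat, and the 95% intervals over the 4 diets between 0.760-fold and 1.29-fold.

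Kmo (probe set 1368915_at), kynurenine 3-monooxygenase, sits on the outer mitochondrial membrane and commits kynurenine to the branch toward NAD. Its signal was 1121 and 1009 with chow, 1265 and 945 with lard, 873 and 827 with olive oil, 1233 and 1079 with coconut fat, and 1087 and 1063 with fish oil. Both olive oil arrays lay below the other 8, and the share of all probe sets with that pattern was not counted. Olive oil against lard gave a log2 fold change of -0.36 (SE 0.16, 95% interval -0.71 to -0.01, unadjusted p = 0.0429, limma adjusted p = 0.788), which was -0.15 when the first lard array was left out and -0.57 when the second was. The log2 fold change of olive oil against chow was -0.32 (limma adjusted p = 0.629).

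Kynu (probe set 1398282_at), kynureninase, cleaves alanine from kynurenine metabolites with pyridoxal phosphate as cofactor. Its signal was 2537 and 2767 with chow, 2580.4 and 2385 with lard, 2366 and 2075 with olive oil, 2688 and 2743 with coconut fat, and 2037 and 2575 with fish oil. Its olive oil arrays and the first fish oil array were the lowest, and its log2 fold changes against chow ran from -0.26 with olive oil to 0.04 with coconut fat.

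Haao (probe set 1368794_at), 3-hydroxyanthranilate dioxygenase, makes the direct precursor of quinolinate. Its signal was 903 and 1254 with chow, 1012 and 976 with lard, 1206 and 1294 with olive oil, 1299 and 1245 with coconut fat, and 941 and 1169 with fish oil. The lowest array was a chow array, and the other chow array exceeded 6 of the 8 high-fat arrays. The log2 fold changes of Haao against chow were -0.10 with lard, 0.23 with olive oil, 0.26 with coconut fat and -0.02 with fish oil. Over the 6 genes other than Aass and Hpd, the 24 log2 fold changes against chow lay between -0.32 and 0.26, with 0 at a limma unadjusted p under 0.05 (smallest 0.0669). The 95% intervals of the 5 genes without Hgd reached from 0.628-fold to 1.55-fold.

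The enzymes around these steps included some with wider differences from chow. Acmsd, which diverts the product of Haao away from NAD synthesis, had signals of 251.5 and 280.2 with chow, 57.3 and 87.5 with fish oil and 95.1 to 192.5 with the other high-fat diets. Its log2 fold change was -1.19 for the high-fat average against chow (limma adjusted p = 0.282) and -1.86 for fish oil against chow (adjusted p = 0.0999). Nnmt, which methylates nicotinamide, went from 864 and 1004 with chow to between 361 and 539 on the high-fat arrays, without overlap (log2 fold change -0.98, SE 0.16, limma adjusted p = 0.0649). Qprt, which turns quinolinate into a nucleotide on the way to NAD, was at 801 and 999 with chow and 1129 to 1428 with the high-fat diets (0.46, adjusted p = 0.349), and its dimmer probe set had 0.08. Kyat3, a kynurenine aminotransferase, was at 2453 and 2174 with chow and 1338 to 1897 with the high-fat diets (-0.53, adjusted p = 0.364).

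Afmid, kynurenine formamidase, had a log2 fold change of 0.18 and Kyat1, another kynurenine aminotransferase, of -0.10 for the high-fat average against chow. Of 17 genes of the tryptophan and NAD list tested, 0 passed in limma, with 3 higher and 3 lower at an unadjusted p under 0.05 (median log2 fold change 0.06). For the high-fat average, 6.66% of all probe sets had an unadjusted p under 0.05. In Acmsd, Nnmt and Kyat3, as in Aass, both chow arrays lay above all 8 high-fat arrays, and in Qprt both lay below them, but none of these genes passed after adjustment. Chow lay above all 8 high-fat arrays for 2.51% of all probe sets, and the share for the opposite order was not counted.

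**Figure D3:**
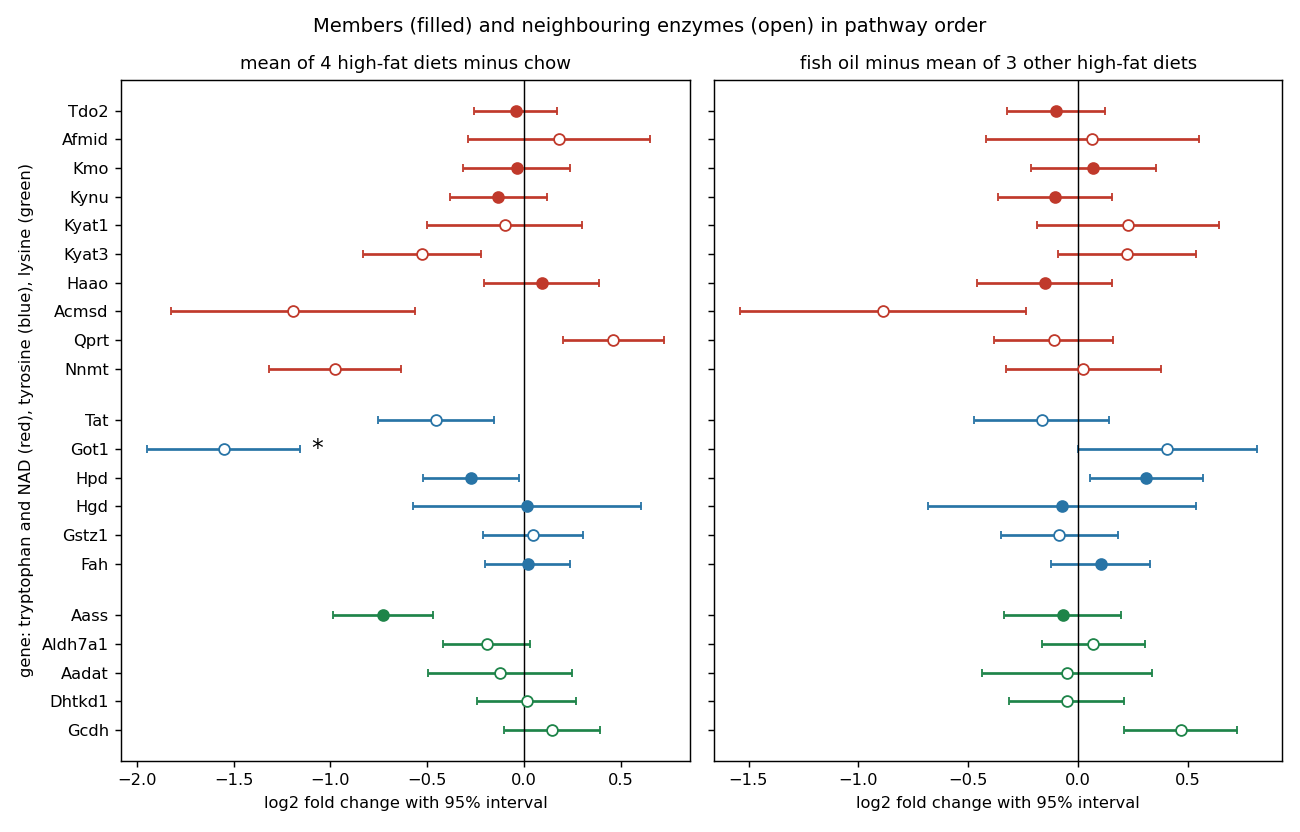
Log2 fold change with 95% interval (horizontal axes) of the 8 genes (filled) and neighbouring enzymes (open) in pathway order, for the mean of 4 high-fat diets against chow (left) and fish oil against the other 3 fats (right). The asterisk marks an adjusted p under 0.05, which Got1 reached (-1.55) on the left. Among the other intervals below 0 there are those of Acmsd (-1.19), Nnmt (-0.98), Aass (-0.73) and Hpd (-0.27), and these genes did not pass. This is not the full list of intervals that exclude 0.

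Counted together, the 8 genes gave 0 calls at an adjusted p of 0.05 by limma in each of the 9 comparisons. With an F-test for any difference between diets, 0.14% of all probe sets passed and 9.4% had an unadjusted p under 0.05, and 2 of the 8 genes, Aass (F = 9.93, adjusted p = 0.172) and Hpd (F = 4.12, adjusted p = 0.463), were among the latter. For fish oil against chow these background shares were 0.156% and 7.63%, with 1 gene, Aass, at an unadjusted p under 0.05. For lard they were 0.0161% and 7.99%, and for olive oil 0.0268% and 8.38%, each with 2 genes, Aass and Hpd. For coconut fat they were 0% and 5.43%, with 1 gene, Aass. These counts rest on the same 2 genes throughout.

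With coconut fat most of the genes had higher values than with lard and olive oil, none of them past the test. The log2 fold change of coconut fat against the mean of the other pair was above 0 for 7 of the 8, between 0.17 for Tdo2 and 0.26 for Kmo, and -0.13 for Aass. The median was 0.19, beside -0.03 over all probe sets tested, of which 45.3% were above 0. With quantile normalization the same 7 signs gave a median of 0.10, beside 0.01 over all probe sets. In limma 0 of the 8 genes passed and 0 had an unadjusted p under 0.05, where 0% and 6.71% of all probe sets did. For olive oil against lard 0% of all probe sets passed and 6.23% had an unadjusted p under 0.05, with Kmo as the 1 of 8 genes.

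The 2 arrays of a diet differed in the same direction for most of the genes in 2 of the diets. With fish oil 7 of 8 genes were higher on the second array, by a median of 0.28 on the log2 scale, and Hgd by 0.97, where 46.6% of all probe sets tested were higher. With lard 7 of 8 were lower on the second array, Hgd by -1.06 and Kmo by -0.42, where 52.2% of all probe sets were higher. That lard array is the one with the highest median signal. With chow and with olive oil 5 genes were higher and 3 lower on the second array, and with coconut fat 3 and 5. The cause of these differences within a diet was not tested.

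**Figure D4:**
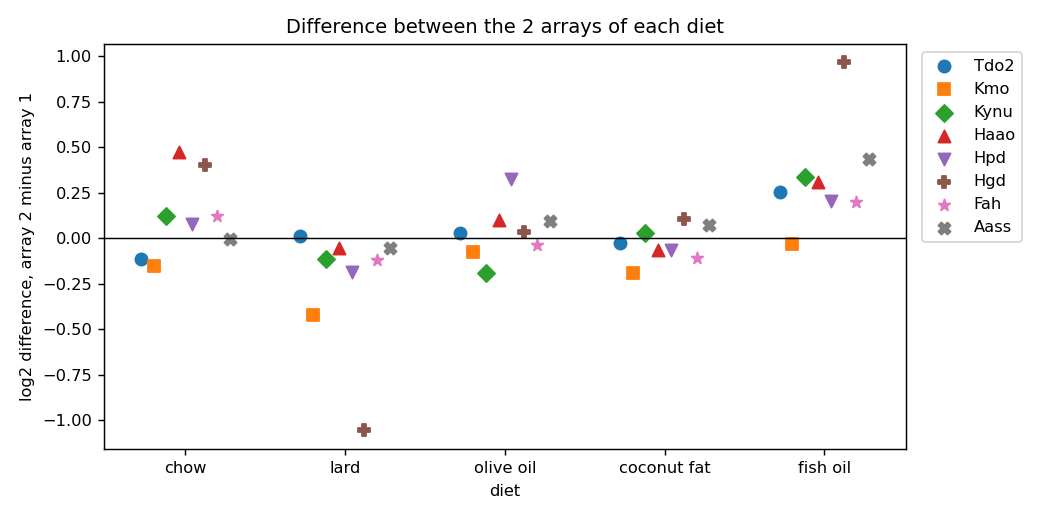
Log2 difference between the 2 arrays of each diet (array 2 minus array 1, vertical axis) for the 8 genes, by diet. The fish oil points lie above 0 for 7 of 8 genes (median 0.28) and the lard points below 0 for 7 of 8, with Hgd at 0.97 and -1.06.

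In a list of other amino acid enzymes, outside the 3 pathways, 2 passed the limma test for the high-fat average against chow. Gpt, alanine aminotransferase, had signals of 2004 and 1958 with chow and 346 to 1327 on the high-fat arrays, and fell 2.54-fold with the high-fat average against chow (log2 fold change -1.35, limma adjusted p = 0.0161). Sds, serine dehydratase, which feeds serine into pyruvate, went from 694 and 876 with chow to between 20.9 and 296.5 and fell 8.35-fold (-3.06, SE 0.37, adjusted p = 0.0205). The calls of Gpt and Sds were lost in the same 4 settings as that of Got1. In that list 2 of 27 genes tested passed as lower and 0 as higher (median log2 fold change -0.08), where 0.0376% of all probe sets passed.

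Of 17 genes of the peroxisome proliferator response tested, 16 had log2 fold changes above 0 and 1 below when fish oil was set against the other 3 fats. The list median was 0.64. While 0.424% of all probe sets passed, 5 of these genes passed as higher and 0 as lower. They were Ehhadh (log2 fold change 1.48, limma adjusted p = 0.000821), the bifunctional enzyme of peroxisomal beta-oxidation, Acot1 (4.62, adjusted p = 0.00246), Acot2 (0.93, adjusted p = 0.0445), Pex11a (1.12, adjusted p = 0.0433) and Cpt2 (0.75, adjusted p = 0.0311). Without the intensity trend 1 of these 5 calls held, that of Acot1 (limma adjusted p = 0.0408). Leaving out any 1 array of lard, coconut fat or fish oil also ended the calls of Pex11a, Cpt2 and the brightest Acot2 probe set. Any 1 olive oil array did so for Pex11a and that Acot2 probe set. The dimmer Acot2 probe sets also passed in this comparison (log2 fold change 1.499, limma adjusted p = 0.0113, and 1.228, adjusted p = 0.0151). Their calls held in 16 and 15 of 19 other settings, against 8 for the brightest. Both were lost without the intensity trend and without either fish oil array. In the same comparison the 8 genes had a median of -0.07, beside -0.02 over all probe sets. Of 11 glucocorticoid-induced genes tested, 4 had log2 fold changes above 0 and 7 below. In limma 1 passed as higher, Mt2A, a metallothionein (2.68, limma adjusted p = 0.00453, and 0.0887 without the intensity trend), and 0 as lower. The Mt2A call was also lost without the second fish oil array.

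The genes whose log2 values followed Aass most closely over the 10 arrays, among 14167 probe sets with a single symbol, were Sf1 (Pearson r = 0.943), Smarca4 (0.926), Anxa3 (0.925), Mbnl3 (0.912) and Slk (0.907). The arrays share scaling and labelling, the chow arrays were the highest 2 for each of these 5, and none passed for the high-fat average against chow (limma adjusted p of 0.0742 to 0.672). Other probe sets of Sf1, Smarca4, Anxa3 and Slk correlated with Aass at -0.07 to 0.49.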

How the data were processed

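Liver RNA was measured as biotin-labelled cRNA on 10 single-colour Affymetrix arrays, 2 per diet. The authors deposited linear MAS5 signal intensities, a summary named in the submitters' processing notes without a version. From 31099 probe sets 57 controls were taken out. Signals were transformed to log2(signal + 3.1), with the 10th percentile of the table (3.1) as offset, and the dimmest 40% by mean log2 value (signal below about 17.8) were dropped, which left 18625. Array scans are not used here. Offsets make the fold changes of dim genes too small.

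Symbols came from the platform annotation: 20826 probe sets had 1, 436 several and 9780 none. In limma 3.58.1 (R 4.3.3) a linear model gave each diet its own mean across the 10 arrays (5 residual and 5.96 prior degrees of freedom, intensity trend), two-sided, with Benjamini-Hochberg adjustment over all probe sets in each comparison at 0.05. The fit was tested on simulated data. With 2 arrays a diet, their number limits the precision.

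The members, lists and tests were chosen with earlier results of these data known. Neighbouring genes were named by rule: fixed pathway neighbours, and per list up to 4 genes that passed in any comparison, otherwise the 2 with the smallest F-test p; a gene was represented by its brightest probe set. Acot2 was named beside these because its list's count was 5. Replicate numbers of the labels did not pair the arrays (10 pairs of diets, r of residuals -0.03 to 0.08, 0 above 0.1). Alternatives varied the scaling, offset, dim filter, variance trend, arrays fitted, a replicate block, and each array left out in turn. Figures were drawn with matplotlib 3.10.9 in Python 3.11.15.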

Additional observations from a re-analysis of the deposited data

How the results depend on the processing

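Each count of the 8 genes past the threshold was recomputed under 9 other settings (8 for the F-test, which needs all diets) and without each of the 10 arrays. It stayed at 0 in these settings in all 9 comparisons, except for the high-fat average against chow, where leaving out 1 array gave counts between 0 and 1. The 1 was Aass without the second fish oil array (log2 fold change -0.78, limma adjusted p = 0.0245). Over all 19 settings the Aass value lay between -0.78 and -0.67, with adjusted p from 0.0245 to 0.506, the highest without the intensity trend. With a replicate block the smallest limma adjusted p of the 8 genes for fish oil against chow was 0.0914, and 0 of the 8 genes passed in any comparison. Hpd kept its direction in each setting but not its unadjusted p under 0.05: for fish oil against the other 3 fats it did in 15 of 19, with log2 fold changes of 0.21 to 0.42. Kmo with olive oil against lard kept it in 10 of 19 (-0.57 to -0.15). The mean over a gene's probe sets gave no value of its own, since each of the 8 genes has 1 probe set.

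Counts over all probe sets varied more. They ranged from 0 to 12 for the high-fat mean (7 as reported), 5 to 41 for fish oil against chow (29), 6 to 120 for fish oil against the other 3 fats (79) and 1 to 36 for the F-test (26). They ranged from 0 to 8 for lard (3), 0 to 23 for olive oil (5), 0 to 5 for coconut fat (0), 0 to 1 for coconut fat against lard and olive oil (0) and 0 to 4 for olive oil against lard (0). With the replicate block, lard against chow had 0. The causes were not tested. With 2 arrays a diet, signals of Hgd in particular were too scattered to place, and a p that misses the threshold does not show that a gene did not differ.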
